A study of Homo sapiens with 32 samples.

Results

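The 1908 loci described here are the genes annotated as small nuclear RNA (snRNA) on the human genome build GRCh37 (GENCODE release lifted to that build), out of 64486 annotated genes. They were chosen by gene type alone. 6 genes of the same type were left out, namely 7SK RNA, 4 RNU11 copies and 1 RNU12 copy. Of the 1908 loci, 41 carry the symbol of a functional gene and 1867 are annotated copies, that is pseudogene symbols ending in P or loci with a family name only. The loci were grouped into the families U1, U2, U4, U5, U6, U7, U4atac and U6atac. One family does not belong to the spliceosome, since U7 serves histone mRNA 3′ end processing, so "spliceosomal" holds for the other 7.

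Binding of RNA export factors was measured by iCLIP, in which RNA is crosslinked to protein by ultraviolet light, immunoprecipitated and reverse transcribed, so that the end of each cDNA marks a crosslinked base. FlpIn-293 cells, a human embryonic kidney line made for transgene insertion at a set genomic site (the labels also name them FlipIn HEK293T), expressed FLAG-tagged Alyref, Chtop or Nxf1, and Control cells carried the construct for FLAG only. Each group was 1 stable line with 3 iCLIP libraries, 12 in all, each immunoprecipitated with an anti-FLAG antibody. Tagged protein was induced by 48 h of tetracycline, 10 ng/mL in the Alyref line, 10 ng/mL in the Chtop line and 5 ng/mL in the Nxf1 line, and the labels give no dose for the Control. The tagged proteins were made beside the endogenous ones. Alyref and Chtop are subunits of the TREX complex, which couples mRNA processing to export, and Nxf1 is the receptor that carries mRNA through the nuclear pore. The labels do not say that the libraries of a group came from separate cultures, so that p-values measure the spread between these libraries, which may be technical.

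The snRNAs are short, abundant RNAs that do not code for protein. U1 pairs with the 5′ splice site, U2 with the branch point, and U4, U5 and U6 enter as a tri-snRNP, in which U4 holds U6 inactive by base pairing and U5 aligns the exons. U4atac and U6atac do the work of U4 and U6 on the rare minor class of introns. All but U6 and U6atac are made by RNA polymerase II, leave the nucleus for assembly of a ring of Sm proteins on a short uridine-rich site, and come back. U6 and U6atac are made by RNA polymerase III, stay in the nucleus and bind Lsm proteins. The human genome holds many pseudogene copies of these genes, most of them of U6.

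Sequences of some of the loci that carried most tags, or that the comparisons turn on, are printed first. All were read from GRCh37 on the strand of the gene. The capitals mark the 10 bases with most tags over the 12 libraries, a tag being 1 unique cDNA placed at its crosslinked base. The U4 loci lie side by side at chr12:120729566-120729706 (RNU4-2) and chr12:120730900-120731040 (RNU4-1), both on the minus strand. Their 141 bases were 97.2% identical, and 29.7% of the 316 tags of RNU4-2 and 42.6% of the 162 tags of RNU4-1 lay on the capitals.
RNU4-2: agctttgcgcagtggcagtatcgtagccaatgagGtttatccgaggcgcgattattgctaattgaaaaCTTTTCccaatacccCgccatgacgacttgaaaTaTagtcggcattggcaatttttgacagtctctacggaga
RNU4-1: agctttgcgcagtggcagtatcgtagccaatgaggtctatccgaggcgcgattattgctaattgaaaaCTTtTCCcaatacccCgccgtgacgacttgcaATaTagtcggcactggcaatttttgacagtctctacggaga

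A locus of U1, of U2 and of U6atac with many tags in its family is given next. RNVU1-17, a variant U1 gene, lies at chr1:149194106-149194269 on the minus strand, and 71.3% of its 87 tags fell on the capitals. RNU2-59P, a U2 copy, lies at chr10:103124602-103124792 on the minus strand. RNU6ATAC lies at chr9:137029561-137029686 on the minus strand.
RNVU1-17: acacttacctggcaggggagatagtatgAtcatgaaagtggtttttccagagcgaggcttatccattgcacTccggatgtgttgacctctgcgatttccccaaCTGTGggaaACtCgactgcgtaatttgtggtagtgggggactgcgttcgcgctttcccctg
RNU2-59P: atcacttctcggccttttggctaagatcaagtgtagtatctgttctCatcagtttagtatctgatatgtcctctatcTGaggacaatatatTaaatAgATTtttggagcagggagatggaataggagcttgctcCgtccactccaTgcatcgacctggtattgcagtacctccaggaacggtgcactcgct
RNU6ATAC: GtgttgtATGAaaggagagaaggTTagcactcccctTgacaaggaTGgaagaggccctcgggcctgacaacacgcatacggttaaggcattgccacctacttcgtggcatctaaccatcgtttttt

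RNU2-2P, the locus with most tags of all, lies at chr11:62609091-62609281 on the minus strand, where it overlaps the gene WDR74. RNU7-1 lies at chr12:7052979-7053041 on the plus strand, where it overlaps the gene C12orf57. Shown are the 30 adjoining bases with most tags, 98 to 127 of RNU2-2P (chr11:62609155-62609184) and 3 to 32 of RNU7-1 (chr12:7052981-7053010). The stretches hold the Sm site of U2 and the Sm-like site of U7. They were picked by their tags, so their counts do not show a concentration at those sites. The stretch of RNU2-2P held 302 of its 1236 tags and that of RNU7-1 held 103 of its 126.
RNU2-2P: gATTTTTggaaatAggagatggaataggag
RNU7-1: gtgTtacagctcTtTtagaaTtTGtcTaGt

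Because the study kept uniquely mapped reads only, near-identical genes could lose their tags. A base was counted as open when the read of a set length that follows it occurs once in the genome. For reads of 30 nt 81.9% of the bases of the 1908 loci were open, for 25 nt 73.9% and for 20 nt 58.1%. The functional loci were far less open than the copies: at 30 nt 25.5% of the bases of functional U1 loci, 28.8% of functional U6 and 33.3% of RNU6ATAC were open, against 80.5% of U1 copies and 81.9% of U6 copies. The U1 genes RNU1-1 to RNU1-4 had at most 3.05% open bases at that length and together held 4 tags. Of the functional U6 tags only 7.89% lay on bases open at 30 nt, so that tag counts of the U1, U6 and U6atac genes are not levels of those RNAs, and loci were not compared with each other in level. The annotation used here gives no functional U2 gene, and U2 was measured on its copies alone. Since RNU2-2P is 1 of the copies, the word copy does not exclude an expressed locus.

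Over the 12 libraries the snRNA loci held 11868 tags on the gene strand and 58 on the other strand, so that the tags followed the annotated strand. 598 loci held a tag. Functional loci held 2295 tags, 19.3% of the total, on 34 of 41 loci, and copies held 9573 on 564 of 1867, of which 176 held a single tag. U2 took 40.5% of the tags, U6 26.7%, U1 12.8%, U5 11.7%, U4 5.23%, U6atac 1.53%, U7 1.26% and U4atac 0.32%. RNU2-2P with 1236 tags and RNU2-59P with 1077 made up 48.2% of the U2 tags and 19.5% of all snRNA tags. The 12 copies with most tags held 38.6% of the total. They were 7 U2 loci, namely RNU2-2P, RNU2-59P, RNU2-61P, RNU2-6P, RNU2-64P, RNU2-3P and RNU2-70P, and 5 U6 loci, namely RNU6-34P, RNU6-39P, RNU6-46P, RNU6-5P and RNU6-16P.

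Tags were concentrated on the loci and not on their surroundings. For the 685 loci within another gene on the same strand, the tags per base were 25.6 to 132 times those of the 200 nt on either side, and for the loci with no such gene 42.0 to 90.8 times, in the 11 libraries with tags in the flanks. Nxf1 replicate 1 had none there. The values of 132 and 42.0 both came from Control replicate 1, whose flanks held only 1 and 3 tags. Tags were also spread over bases: each occupied base held on average 1.04 to 1.14 tags and none held more than 10 in 1 library. The 3 bases upstream of the annotated 5′ end, which a cDNA running to the end of the RNA would mark, held 68 tags for U1 copies against 1057 inside, and 58 of the 68 lay on the base just before the locus.

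The share of tags on snRNA loci varied within groups as well as between them. Alyref libraries 1, 2 and 3 held 926, 1540 and 2159 snRNA tags of 81307, 631704 and 603291 in all, or 1.14%, 0.244% and 0.358%. For Chtop the counts were 564, 950 and 970 of 47052, 538844 and 429573, or 1.20%, 0.176% and 0.226%. For Nxf1 they were 88, 1346 and 1998 of 8134, 119191 and 179346, or 1.08%, 1.13% and 1.11%, and for Control 70, 513 and 744 of 7017, 46628 and 36978, or 0.998%, 1.1% and 2.01%. The Nxf1 libraries lay close together, whereas replicate 1 of Alyref and of Chtop lay among the Nxf1 and Control libraries and the 4 deepest libraries stood apart below all others. Between replicate 1 and replicates 2 and 3, the total grew 7.77-fold and 7.42-fold in Alyref and 11.5-fold and 9.13-fold in Chtop, but the snRNA tags 1.66-fold and 2.33-fold, and 1.68-fold and 1.72-fold. In Nxf1 both grew alike, the total 14.7-fold and 22.0-fold and the snRNA tags 15.3-fold and 22.7-fold. In Control the snRNA tags grew more, 7.33-fold and 10.6-fold against 6.65-fold and 5.27-fold for the total. The part of depth in these differences was not tested.

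**Figure D1:**
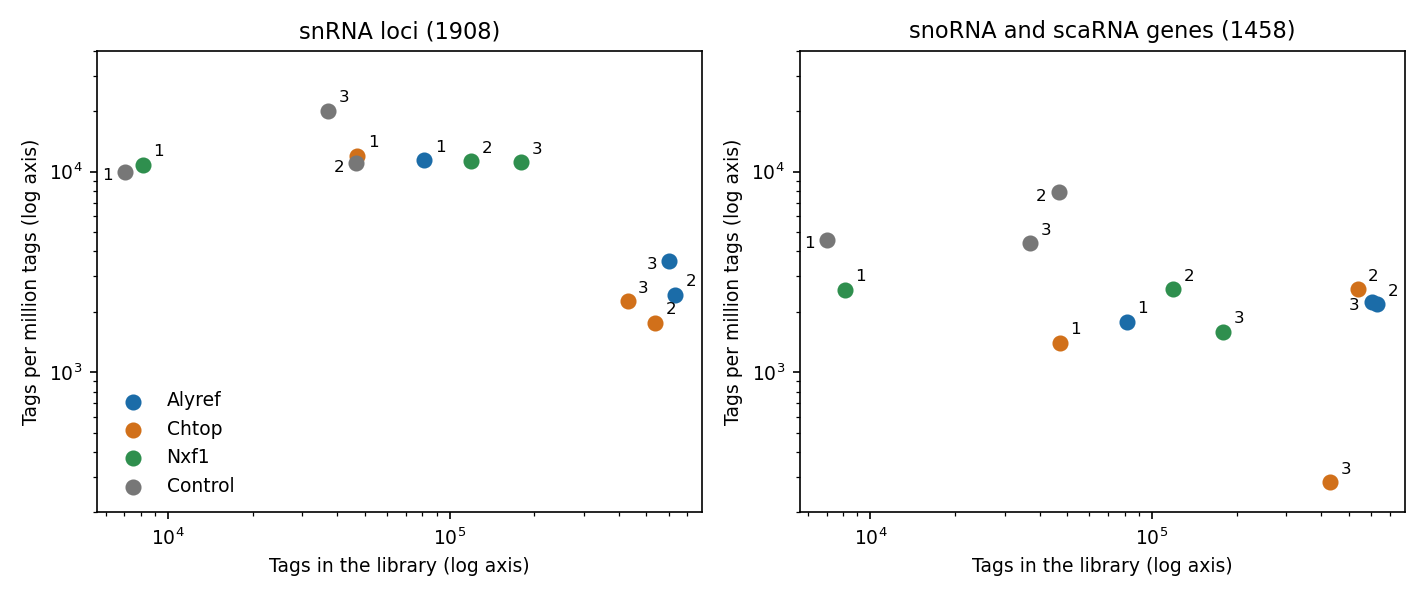
CPM (tags per 1000000 tags of the library) on the 1908 snRNA loci (left) and the 1458 snoRNA and scaRNA genes (right) against all tags of the library, both axes on a log scale; each point is 1 library with its replicate number. The 4 Alyref and Chtop libraries with at least 429573 tags lie below the other 8 on the left but, apart from Chtop replicate 3 at 284 CPM, not on the right.

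As log2 CPM, that is tags per 1000000 tags of the library, the snRNA share was 12.18 ± 1.16 (SD, n = 3) in Alyref, 11.82 ± 1.50 in Chtop, 13.44 ± 0.03 in Nxf1 and 13.67 ± 0.55 in Control. Against the Control the difference was -1.49 for Alyref (exact permutation test, two-sided, p = 0.3, adjusted 0.45), -1.84 for Chtop (p = 0.3, adjusted 0.45) and -0.23 for Nxf1 (p = 0.9, adjusted 0.9), and 3 libraries against 3 cannot go below 0.1. Against the 6 libraries of the other factors it was -0.45 for Alyref (exact permutation p = 0.786), -0.98 for Chtop (p = 0.238) and 1.43 for Nxf1 (p = 0.238), with adjusted values of 0.786, 0.357 and 0.357 and a smallest possible p of 0.0238. None of these differences was larger than the spread between libraries by this test. The log2 ratio of snRNA to snoRNA tags, a class of like size and place, differed from the Control by -0.09 for Alyref (exact permutation p = 1), 0.57 for Chtop (p = 0.8) and 1.06 for Nxf1 (p = 0.3, adjusted 0.9).

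The share of snRNA tags on functional loci was 14.9%, 25.3% and 18.9% in the Alyref libraries, 11.9%, 21.5% and 16.5% in Chtop, 10.2%, 28.5% and 18.1% in Nxf1 and 12.9%, 19.5% and 9.01% in Control. It was lowest in replicate 1 and highest in replicate 2 of each factor, and the groups overlapped throughout. Replicate 2 of each group was sequenced in other HiSeq runs than replicates 1 and 3, and the part of the runs in this order was not tested. The differences from the Control were 5.91 percentage points for Alyref (exact permutation p = 0.3, adjusted 0.6), 2.83 for Chtop (p = 0.6) and 5.13 for Nxf1 (p = 0.6). Single libraries moved them, with ranges of 3.09 to 8.76, 0.40 to 5.68 and 0.36 to 9.48 points when each was left out in turn. The lowest values came without replicate 2 of the factor, and the highest without Control replicate 2 for Alyref and Chtop and without Nxf1 replicate 1 for Nxf1. Wilson 95% intervals were widest in Control replicate 1, at 6.91% to 22.7%, and narrowest in Alyref replicate 3, at 17.3% to 20.6%. These intervals cover counting error only.

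The functional U4 genes, whose RNA keeps U6 inactive, held a smaller share of the Alyref and Chtop tags than of the Nxf1 and Control tags. They held 221, 106 and 97.8 CPM in the Alyref libraries, 149, 76.1 and 83.8 in Chtop, 246, 873 and 541 in Nxf1 and 428, 643 and 379 in Control. Each Alyref and Chtop library lay below each Nxf1 and Control library, although the counts in replicate 1 were small (18, 7, 2 and 3 tags). RNU4-2 held 66.7% of the functional U4 tags in Alyref, 63.1% in Chtop, 66.5% in Nxf1 and 68.1% in Control, summed over libraries, with per-library counts of 13, 44 and 39 tags, 5, 28 and 20, 2, 71 and 62, and 3, 18 and 11. The split between RNU4-2 and RNU4-1 thus differed between groups by less than its counting error.

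Most tags on U4 copies came from Nxf1. In tags, they held 3, 5 and 5 in Alyref, 3, 4 and 2 in Chtop, 0, 18 and 95 in Nxf1 and 0, 2 and 6 in Control. Of the 143 tags, 95 thus came from Nxf1 replicate 3, where they lay on 42 of 89 copies with at most 7 on 1 locus. Nxf1 replicate 2 had them on 12 copies. Over the 3 libraries of a group, Alyref tags lay on 12 copies, Chtop tags on 8 and Control tags on 6.

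U1 was measured mostly on variant genes and copies. The 21 RNVU1 loci held 462 of the 466 functional U1 tags, on 15 loci. RNVU1-17, RNVU1-14, RNVU1-19, 1 of the pair of loci named RNVU1-8 (chr1:146556163-146556303, minus strand) and RNVU1-6 held 87, 82, 70, 57 and 46 tags, and the other 16 held 120. Functional U1 loci gave 246, 101 and 113 CPM in Alyref, 531, 35.3 and 88.5 in Chtop, 369, 772 and 502 in Nxf1 and 143, 343 and 811 in Control. Chtop replicate 1 was high in U1 on both sides of the split, with 2380 CPM on U1 copies against 108 and 163 in the other Chtop libraries. U1 made up 24.3% of its snRNA tags, the highest share of any library.

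U2 copies held 4588, 940 and 1296 CPM in Alyref, 4208, 822 and 980 in Chtop, 8114, 4145 and 3903 in Nxf1 and 8408, 6370 and 10114 in Control. Replicate 1 of Alyref and of Chtop reached the range of Nxf1. RNU2-2P alone held 93, 155 and 151 tags in Alyref, 63, 138 and 117 in Chtop, 24, 146 and 144 in Nxf1 and 28, 99 and 78 in Control. Its tags differed little between replicates 2 and 3 of Alyref, Chtop and Nxf1, whose totals ran from 119191 to 631704. In the shallow libraries Nxf1 replicate 1 and Control replicate 1, U2 made up 75% and 84.3% of the snRNA tags, compared with 35.0% to 57.9% in the other 10.

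U5, which holds the exons in place during splicing, had 787, 271 and 302 CPM on its functional genes in Alyref, 531, 184 and 133 in Chtop, 492, 1233 and 764 in Nxf1 and 428, 987 and 406 in Control. Its 26 copies held 307, 117 and 148 CPM in Alyref, 255, 74.2 and 65.2 in Chtop, 369, 512 and 379 in Nxf1 and 143, 300 and 541 in Control. On the copies each Nxf1 library lay above each Alyref and Chtop library, whereas on the functional genes replicate 1 of Alyref and of Chtop lay within the Nxf1 range.

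U6 copies gave 3887, 598 and 1188 CPM in Alyref, 3549, 369 and 663 in Chtop, 615, 2341 and 2844 in Nxf1 and 0, 858 and 4327 in Control. The ranges of the 4 groups overlapped. In Control replicate 1 no U6 tag was seen, which allows a share of up to 0.0428% of its tags. U6atac was listed at 0 in Nxf1 replicate 1 (up to 0.0369%), Control replicate 1 (up to 0.0428%) and Control replicate 3 (up to 0.00811%), and RNU6ATAC held 6, 38 and 29 tags in Alyref, 5, 17 and 11 in Chtop, 0, 5 and 12 in Nxf1 and 0, 2 and 0 in Control. RNU4ATAC held 36 tags in all, and RNU7-1, the gene for the histone RNA processing snRNA, 126.

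**Figure D2:**
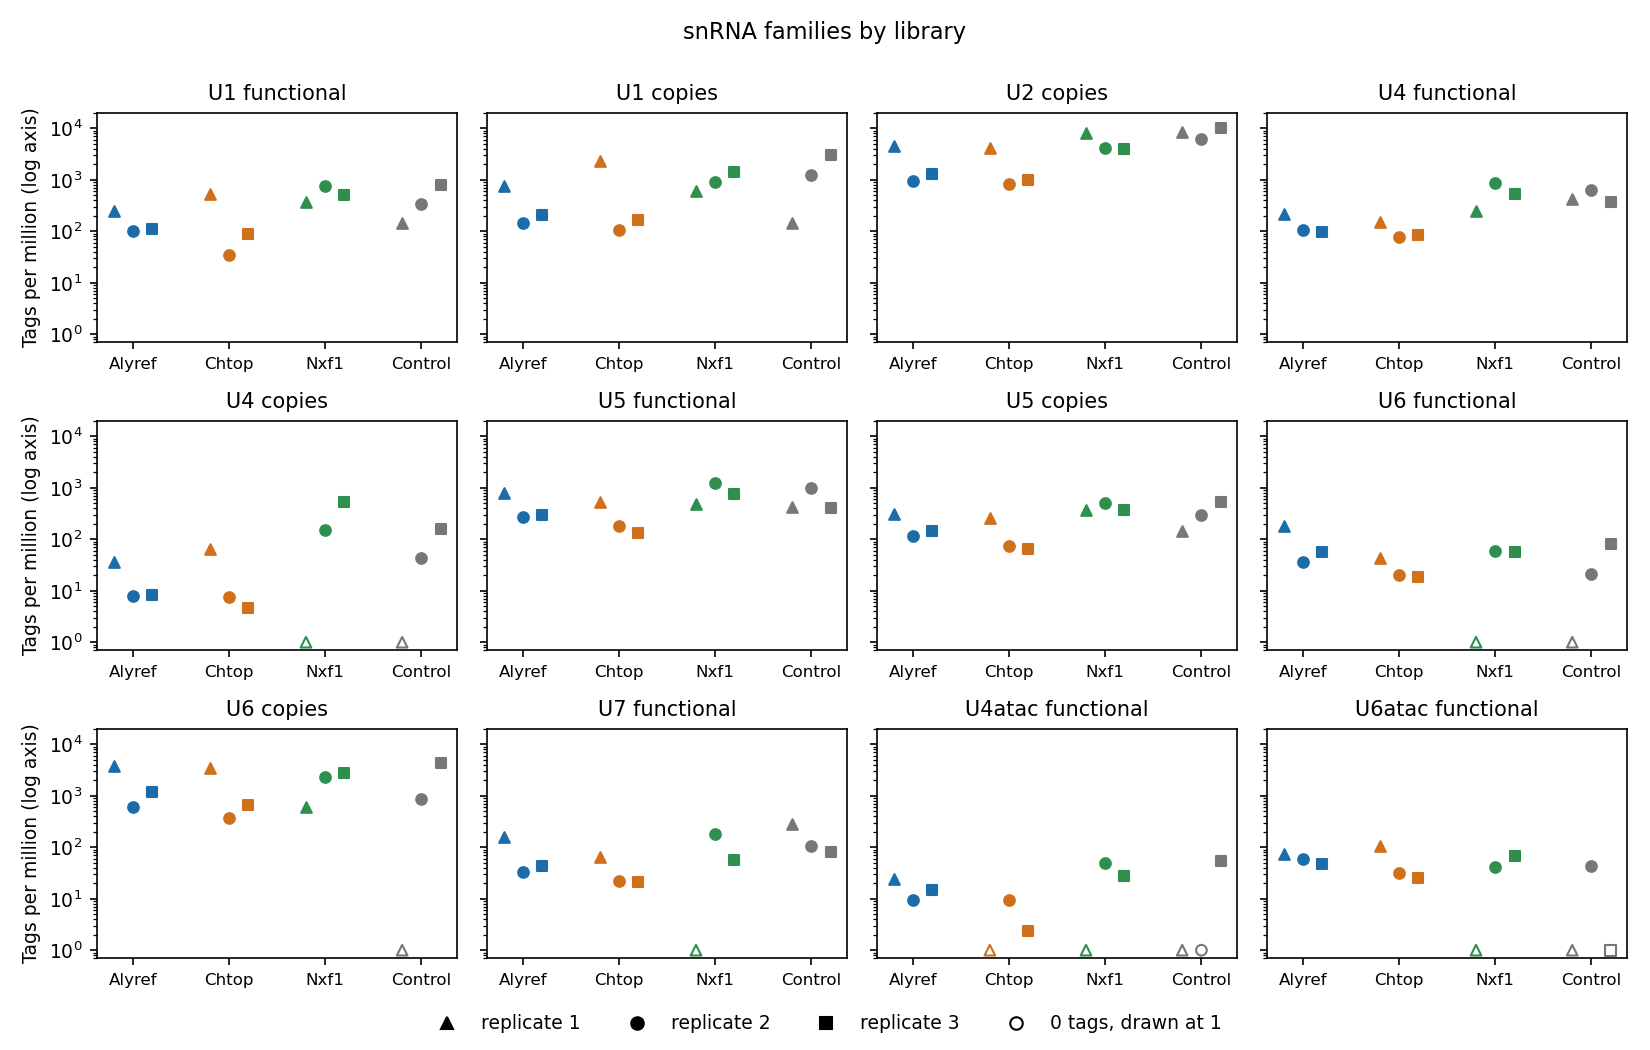
CPM in each library for 12 family features, on a log axis; open symbols mark libraries with 0 tags, drawn at 1. For functional U4 all 6 Alyref and Chtop libraries lie below all 6 Nxf1 and Control libraries, while the groups overlap for U6 copies.

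U6 copies differed in tags with their likeness to the U6 gene. Of the 40 copies at least 95% identical to RNU6-9, a functional U6 gene, 39 held a tag, 1375 tags in all or 883 per 1000 bases open at 30 nt. From 90% to 95% identity 57 of 73 copies held 818 tags (172 per 1000 open bases), from 80% to 90% 154 of 663 held 617 (10.7), and under 80% 68 of 551 held 246 (5.04). The order was the same for U2 copies, with 2354 tags per 1000 open bases from 90% to 95% identity, 423 from 80% to 90% and 58.7 under 80%, and for U1 copies, with 1394, 104 and 45.9. For U4 copies it was not, with 35.1, 10.0 and 12.8. In these values all tags of a class, also those on bases that were not open, were divided by its open bases. From high to low identity 36.4%, 61.1%, 81.7% and 88.6% of the bases of U6 copies were open, which raises the values at high identity. The U1 value of 1394 rests on 99 tags and 71 open bases, 14.4% of the length. The values are thus not levels of the copies. Expression of a copy and reads of a functional gene placed on it cannot be told apart for copies of high identity.

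The Control shows what the procedure recovers without a tagged factor, and the common antibody allows the factors to be set against each other. For both kinds of comparison tags were tested across all genes by edgeR's quasi-likelihood test with Benjamini-Hochberg adjustment, a feature being called at an adjusted p under 0.05. In a table with the loci of a family summed into a functional and a copy feature, 9 of 15 snRNA features passed the filter on low counts, among 3228 features tested. All 9 features had a negative log2 difference in Alyref and in Chtop, both against Control and against Nxf1. The comparisons share libraries and are not independent. The differences are relative to the tags of each library and are not differences in raw counts. Functional U4 held 18, 67 and 59 tags in Alyref and 7, 41 and 36 in Chtop. It held 2, 104 and 97 in Nxf1 and 3, 30 and 14 in Control. A lower share can come from less of the RNA, from less of it bound or from more tags on other RNAs. These cannot be told apart here.

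Against the Control, Chtop was lower on 3 of 9 features, where 5.45% of all features were called lower. These were functional U4 at -2.57 (log2, SE 0.47, adjusted p = 9.4e-04 by edgeR), U5 copies at -2.19 (SE 0.55, adjusted p = 0.0091) and functional U1 at -2.15 (SE 0.69, adjusted p = 0.034). Alyref had no call on the 9 (0% of all features called). By edgeR 6 of the 9 had an unadjusted p under 0.05, as had 498 of all features, and DESeq2 called 1 of the 9. Functional U4 in Alyref was at -2.18 (SE 0.45, adjusted p = 0.0587 by edgeR) and by DESeq2 was called at -2.11 (adjusted p = 0.0335). Nxf1 had no call either (0.0310% of all features called). There 1 of the 9 had an unadjusted p under 0.05 by edgeR, U4 copies at 2.06 (SE 0.75), and DESeq2 called 0. The median log2 difference over the 9 features was -1.85 for Alyref, -2.15 for Chtop and 0.23 for Nxf1, beside 0.15, 0.16 and 0.10 over all features tested.

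Between factors, Alyref was lower than Nxf1 on 4 of 9 features (1.73% of all features called lower) and Chtop on 6 (10.6%). U4 copies differed most, by -5.33 for Alyref (SE 0.60, adjusted p = 2.2e-07 by edgeR) and -5.37 for Chtop (SE 0.64, adjusted p = 3.9e-07). Functional U4 followed at -2.61 (SE 0.39, adjusted p = 5.9e-05) and -3.01 (SE 0.41, adjusted p = 5.5e-06). Functional U1 was at -2.39 in Alyref (adjusted p = 0.0122 by edgeR) and -2.38 in Chtop (0.00483), and U5 copies at -1.62 (0.0216) and -2.42 (3.95e-04). Functional U5 at -1.96 (adjusted p = 0.00788 by edgeR) and U7 at -2.26 (0.0110) were called for Chtop only, which does not show that Chtop and Alyref differed there. Alyref against Chtop had no call on the 9 features (16.1% of all features called in either direction). By edgeR none had an unadjusted p under 0.05, and DESeq2 called 0. With all libraries U6 copies were called in no comparison, with log2 differences of -0.47 to 0.21 and SE 0.84 to 0.87.

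**Figure D3:**
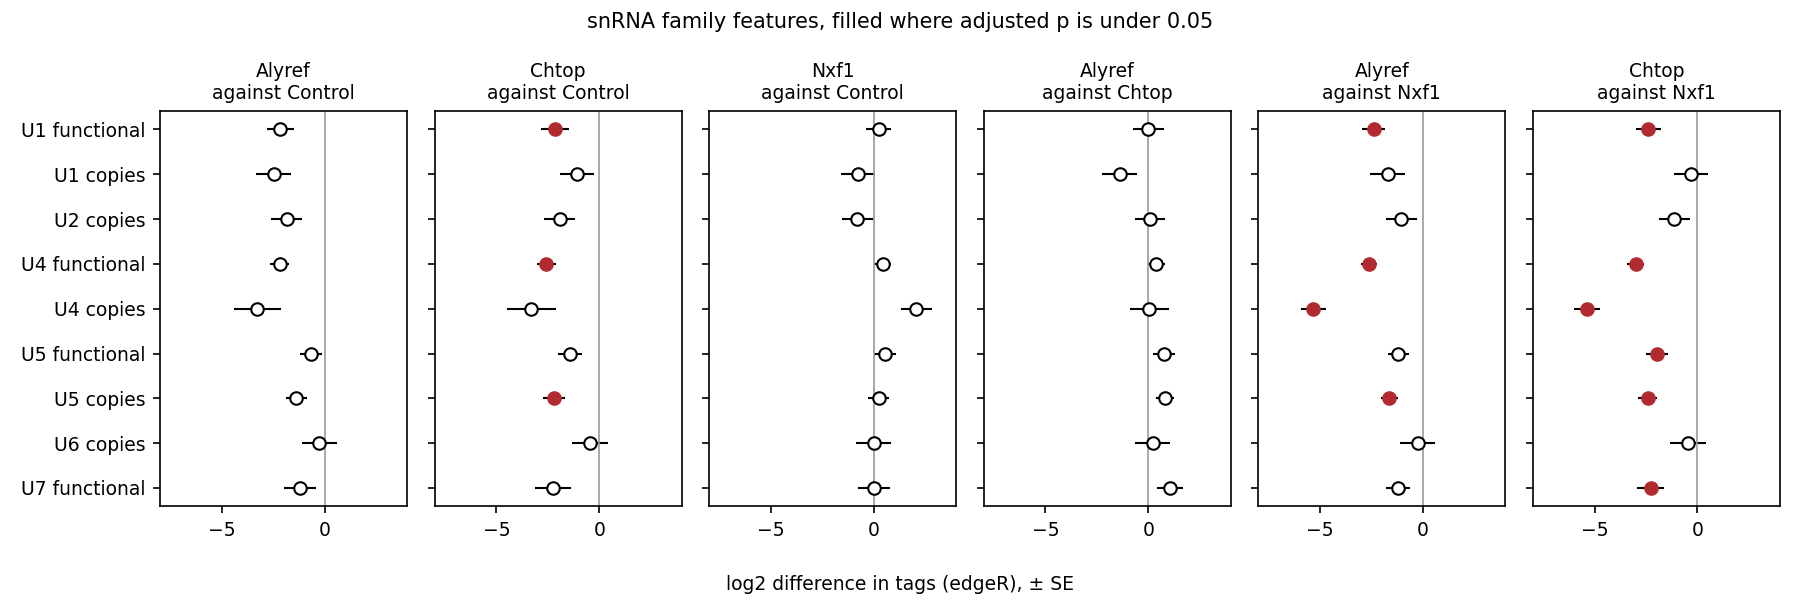
log2 differences with their SE from the edgeR fit for the 9 tested snRNA features in the 6 comparisons; filled points have an adjusted p under 0.05. U4 copies lie farthest to the left in both comparisons with Nxf1, and with all 12 libraries U6 copies lie at -0.47 to 0.21, values that shift to between -2.12 and 2.14 when single libraries are left out.

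1 library decided several of these values. Without Nxf1 replicate 3, U4 copies stood at -3.63 for Alyref (adjusted p = 0.0774 by edgeR, no longer called) and at -3.63 for Chtop (adjusted p = 0.0277). Without Control replicate 3, functional U1 in Chtop against Control was at -1.1 (adjusted p = 0.417 by edgeR) and U5 copies at -1.37 (0.218), while functional U4 was still called at -2.48 (0.0055). Functional U1 also lost that call without Chtop replicate 2 (-1.08), Chtop replicate 3 (-1.65) or Control replicate 2 (-2.32). Functional U4 kept its 3 calls whichever single library was left out.

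The values of U6 copies rested on single libraries as well. Without Chtop replicate 1, they were at -2.0 in Chtop against Control (adjusted p = 0.0339 by edgeR), at -2.12 in Chtop against Nxf1 (0.0141) and at 1.93 in Alyref against Chtop (0.0332), all called. Without Control replicate 3, where they held 4327 CPM, their differences from the Control turned to 1.96 for Alyref, 1.72 for Chtop and 2.14 for Nxf1, none of them called. Without replicate 1 of every group they were called in 4 comparisons by edgeR, at -1.64 (adjusted p = 0.00681) for Alyref and -2.28 (9.23e-06) for Chtop against Control, and at -1.81 (3.35e-04) and -2.45 (3.77e-07) against Nxf1.

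Since libraries of the same number shared their sequencing runs, the features were also fitted with the replicate number as a block. Alyref against Control then had 4 calls by edgeR, functional U4 at -2.16 (adjusted p = 0.00142), U1 copies at -3.05 (0.00198), functional U1 at -2.18 (0.00425) and U4 copies at -3.32 (0.0458), where 0.867% of all features were called lower. Chtop against Control had 7 (7.03% of all features), the 3 above together with U1 copies, U2 copies, U4 copies and functional U5 at -2.12, -2.47, -3.29 and -1.56. A term for the HiSeq runs, which replicates 1 and 3 shared, gave fewer calls. For Alyref against Control it called functional U4 (-2.13, adjusted p = 0.0311 by edgeR), but not U1 copies (0.0840), functional U1 (0.0840) or U4 copies (0.109). For Chtop it did not call U1 copies (0.174), U2 copies (0.0501) or functional U5 (0.0918). Under the block Alyref was lower than Nxf1 also on U1 copies at -2.31 and functional U5 at -1.42, where 75 of 3228 features were called lower. With the run term neither was called (adjusted p = 0.126 and 0.207 by edgeR). Chtop had the same 6 calls against Nxf1 under the block, where 320 features were called lower. With replicates 1 and 3 alone, which shared their HiSeq runs, 2 of the 13 calls remained among 1534 features tested. These were U4 copies against Nxf1, at -5.33 for Alyref (adjusted p = 0.00265 by edgeR) and -5.36 for Chtop (0.00484). Both rest on 1 library, since U4 copies held 0 tags in Nxf1 replicate 1 and 95 in Nxf1 replicate 3. Functional U4 was then at -2.03 in Chtop against Control (adjusted p = 0.106 by edgeR), -1.96 in Alyref against Nxf1 (0.632) and -2.44 in Chtop against Nxf1 (0.0577).

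Fitted locus by locus, 35 of the 1908 loci passed the filter, among 3254 features. Alyref was lower than the Control on 2 (0.0615% of all features called lower), RNU4-2 at -2.29 (SE 0.47) and RNU2-64P at -2.53 (SE 0.53), both at an adjusted p of 0.04995 by edgeR. Chtop was lower than the Control on 14 (5.32%), led by RNU4-2 at -2.75 (SE 0.50, adjusted p = 0.00105 by edgeR), the U2 copies RNU2-6P at -2.92 and RNU2-64P at -2.70, and including RNU2-2P at -1.97 and RNU2-59P at -2.08. With the replicate block, Alyref was lower than the Control on 12 loci (1.20% of all features). Nxf1 against Control had 0 calls on the 35 loci by edgeR (0% of all features called), 1 with an unadjusted p under 0.05, and 0 by DESeq2.

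Against Nxf1, Alyref was lower on 9 of 35 loci (1.60% of all features called lower) and Chtop on 20 (10.0%). RNU4-2 was at -2.70 (SE 0.37, adjusted p = 3.5e-05 by edgeR) for Alyref and -3.16 (SE 0.40, adjusted p = 3.0e-06) for Chtop, and RNU4-1 at -2.83 (SE 0.43) and -2.98 (SE 0.46). For Alyref 3 functional U5 genes were called, RNU5B-1 at -1.91, RNU5F-1 at -1.88 and RNU5A-1 at -1.50, and for Chtop all 5, from -3.84 for RNU5D-1 to -1.99 for RNU5A-1. The only U6 locus called was the copy RNU6-34P, at -1.62 for Chtop (adjusted p = 0.0353 by edgeR). With the replicate block Alyref was lower than Nxf1 on 24 loci (2.77% of all features). With replicates 1 and 3 alone 19 loci passed the filter, and edgeR called 0 of them in each comparison, with 7 and 5 at an unadjusted p under 0.05 for Alyref and Chtop against Control, 2 each for both against Nxf1 and 0 in the other 2 comparisons.

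Alyref and Chtop differed on 1 locus of 35, RNU5D-1, higher in Alyref (5.65% of all features called higher). This 1 of 35 did not exceed that share. RNU5D-1 held 14, 35 and 34 tags in Alyref, 3, 6 and 4 in Chtop, 1, 28 and 24 in Nxf1 and 0, 5 and 0 in Control. The log2 difference between Alyref and Chtop was 2.29 (SE 0.62, adjusted p = 0.0104 by edgeR). DESeq2 gave it no call (adjusted p = 0.134), and the call was also lost without Chtop replicate 2 (1.89) or replicate 3 (1.98). The 5 functional U5 genes are paralogues, 79.5% (RNU5F-1 and RNU5D-1) to 94.0% (RNU5A-1 and RNU5B-1) identical in pairs. Within them RNU5D-1 took 21.9%, 20.5% and 18.7% of the tags in the Alyref libraries, 12%, 6.06% and 7.02% in Chtop, 25%, 19.0% and 17.5% in Nxf1 and 0%, 10.9% and 0% in Control. Every Chtop and Control library lay below every Alyref and Nxf1 library. Nxf1 replicate 1 rests on 1 of 4 tags there, and Control replicates 1 and 3 on 0 of 3 and 0 of 15. RNU5D-1 was singled out by its call and these shares come from the same tags, so they are no further support for it. Summed over libraries the share was 19.9% in Alyref (Wilson 95% interval 16.4% to 24%), 7.18% in Chtop (4.25% to 11.9%), 18.4% in Nxf1 (14.4% to 23.3%) and 7.81% in Control (3.38% to 17.0%). The intervals cover counting error only and not the spread between libraries. RNU5A-1 took 15.6%, 19.9% and 20.9% in Alyref and 24%, 21.2% and 26.3% in Chtop, every Chtop library above every Alyref library. The shares are parts of the same total, so a lower share of RNU5D-1 raises the others. In the fit RNU5A-1 was at 0.49 in Alyref against Chtop (SE 0.45, not called), the same sign as RNU5D-1. RNU5B-1, RNU5E-1 and RNU5F-1 overlapped between Alyref and Chtop by library, and summed over libraries took 22.1% and 24.9%, 16.1% and 16.6%, and 22.3% and 28.2%.

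**Figure D4:**
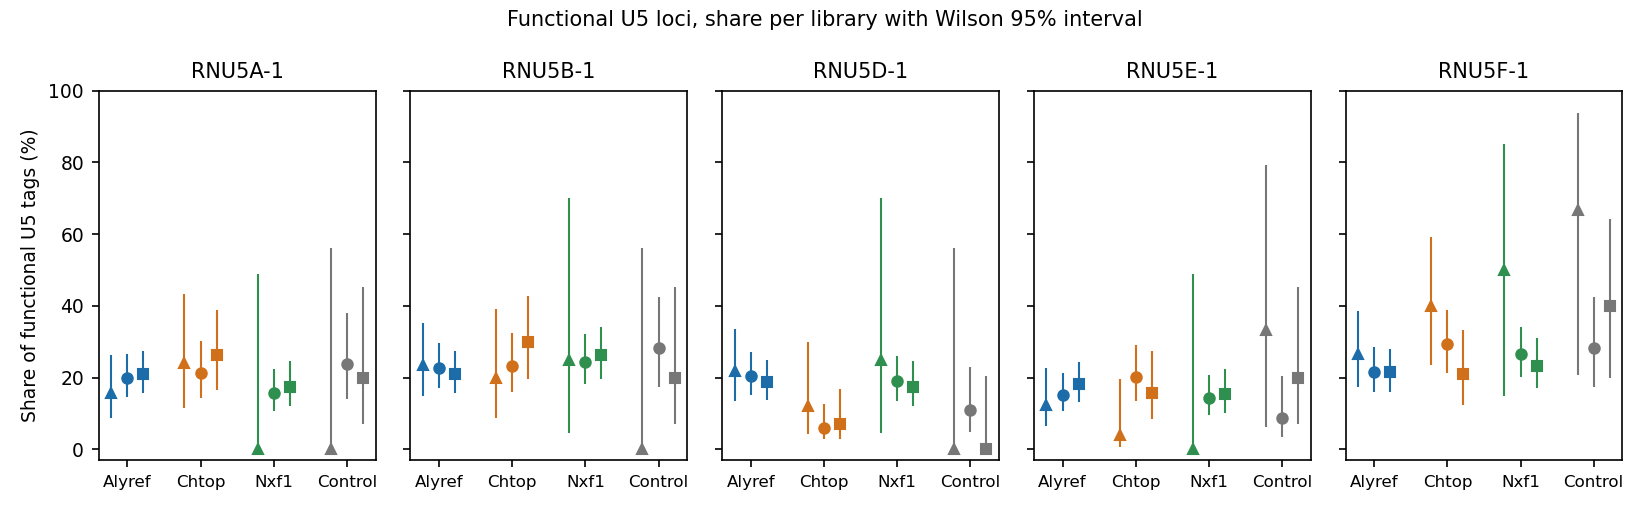
Share of the functional U5 tags on each of 5 U5 genes by library (triangle, circle and square for replicates 1, 2 and 3), with Wilson 95% intervals. RNU5D-1 lies at 18.7% to 21.9% in Alyref and 6.06% to 12% in Chtop, and the wide intervals of replicate 1 of Nxf1 and Control rest on 4 and 3 tags.

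Where on the RNA the tags lay was examined by aligning each locus to the functional locus of its family with most tags (RNU2-2P for U2) and counting bases from its first. Tags had preferred bases in each family. On U1 they peaked at base 72 (96 tags) and base 127 (94), on U2 at 79 (160), 92 (148) and 100 (110), on U4 at 104 (29) and 69 (26), on U5 at 89 (76), 90 (63) and 80 (53), and on U6 at 26 (173), 52 (141) and 40 (140).

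Short elements of known role were then located by their letters in the aligned locus of each family, and tags were counted in the element and 5 nt on either side. The U5 Sm site, ATTTTTTG, held 31.0% of the tags in 15.4% of the length, and U5 loop I, GCCTTTTAC, which touches the exons, 24.2% in 16.2%. The U1 Sm site, ATTTGTG, held 20.3% in 10.4%, the U2 Sm site, ATTTTTG, 15.5% in 8.90%, and the Sm-like site of U7, ATTTGTC, 49.0% in 27.0%. The same letters in U4, ATTTTTG at bases 119 to 125 of 141, held 4.68% in 12.1% of the length. A read lies 3′ of its tag and only reads over 15 nt were kept, so tags near the 3′ end can be missed. The U4 value can therefore not be set against an even spread. For the other elements the share of length is only a rough measure for the same reason. Sm sites are rich in U, which held 46.4% of all snRNA tags. Whether the sites held more tags than their bases alone would give was not tested. The U2 branch point element, GTAGTA, held 9.24% in 8.38%, and ACAGAG of U6, which pairs with the 5′ splice site, 23.9% in 15.0%. Searched on the RNA strand alone, the Sm letters were present in 14 of 31 U5 loci, 81 of 143 U1 loci, 27 of 70 U2 loci, 38 of 91 U4 loci and 120 of 181 U7 loci, loop I in 15 U5 loci, GTAGTA in 35 U2 loci and ACAGAG in 768 of 1333 U6 loci.

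**Figure D5:**
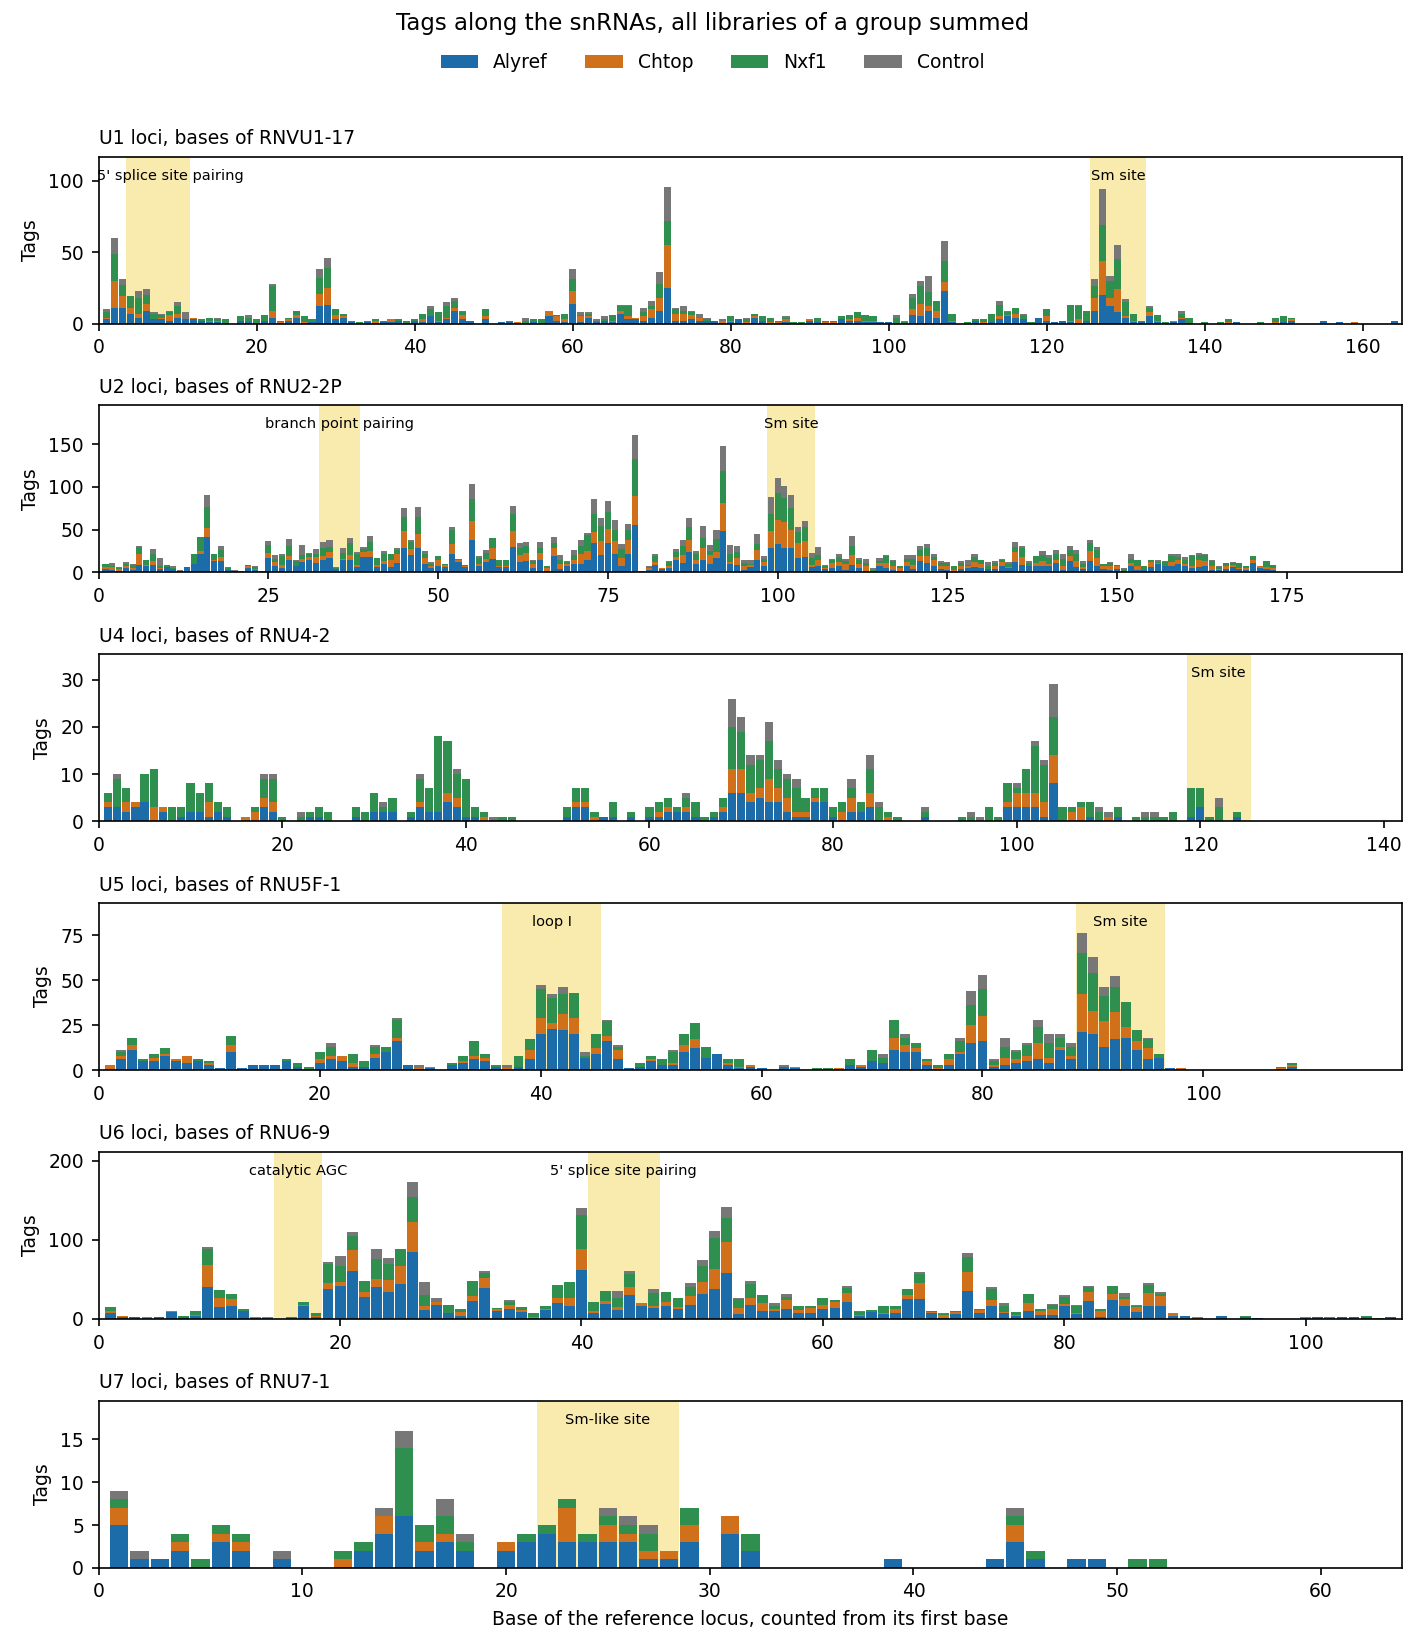
Tags at each base of 6 of the 8 families, libraries of a group summed and stacked; the x axis is the base of the reference locus and shaded bands mark the elements named in the panels. The Sm sites of U1, U2 and U5 coincide with peaks. That of U4 lies past the last large peak at base 104, near the 3′ end, where tags can be missed because short reads were dropped.

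Libraries varied in where U5 was tagged. Of 3 equal stretches of the RNA, the one at the 3′ end held 55.1%, 27.4% and 27.3% of the U5 tags in the Alyref libraries, 56.8%, 48.5% and 54.1% in Chtop, 39.8% and 41.3% in Nxf1 replicates 2 and 3 and 71.2% and 68.6% in Control replicates 2 and 3. Replicate 1 of Nxf1 and Control had only 7 and 4 U5 tags. The 2 deep Alyref libraries were the lowest, but Alyref replicate 1 lay with the Chtop libraries. The Sm site held 24.5% of the U5 tags in Alyref, 38.8% in Chtop, 31.9% in Nxf1 and 46.9% in Control, and loop I 26.6%, 20.5%, 25.4% and 14.3%. No test was made of these shares.

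Over all members 46.4% of the tags lay on U, which made up 28.9% of the open bases, while A held 20.6% (28.8% of open bases), C 17.6% (20.6%) and G 15.4% (21.6%). The share on U was 41.9% to 62.5% in single libraries, the Control libraries included. All tags were counted, also those on bases that were not open, and the open bases were pooled over loci with a tag. The pooled values thus also reflect which families hold the tags. In each family U held a larger share of tags than of open bases, for instance 44.8% against 33.3% in U2 and 64.5% against 37.1% in U5.

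For the genes that make and mature snRNAs, a list of 61 was examined, with the SNAPc and Integrator subunits, the export and import factors, the SMN complex, and the Sm, Lsm and U1 and U2 proteins. These are tags on mRNAs and their precursors, not on snRNAs. 15 passed the filter. By edgeR 0 were called for Alyref against Control, Nxf1 against Control and Alyref against Nxf1 (4.65% of all features called), 1 (higher) for Chtop against Control (8.92% of all features called higher), 2 (higher) for Chtop against Nxf1 (15.3%) and 2 (1 each way) for Alyref against Chtop (16.1% in either direction). None of these counts, out of 15, exceeded the share over all features. In the 3 comparisons with 0 calls, 4, 1 and 5 of the 15 had an unadjusted p under 0.05 by edgeR. GEMIN4, part of the complex that loads Sm proteins on snRNAs, held 2, 36 and 25 tags in Alyref, 7, 99 and 99 in Chtop, 1, 7 and 5 in Nxf1 and 0, 1 and 0 in Control. It rose in Chtop by 4.04 against Control (adjusted p = 0.0044 by edgeR) and 2.00 against Nxf1 (0.0015), and was at -2.20 in Alyref against Chtop (3.5e-05). INTS3, an Integrator subunit, was higher in Chtop than Nxf1 by 1.65 (adjusted p = 0.0099 by edgeR). SRRT, which binds the cap-binding complex, was higher in Alyref than Chtop by 1.08 (adjusted p = 0.0307 by edgeR).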

How the data were processed

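The deposited files hold iCLIP tag counts per crosslinked base and strand for 12 libraries, in 4 groups of 3 that were sequenced as 32 lane runs. Per the labels and the study's methods, the authors removed spiked-in sequence with Bowtie 1.1.2, mapped reads over 15 nt to hg19 with STAR 2.4.2a, kept unique alignments and collapsed duplicates with UMI-tools 0.5.3. A tag lies on a deletion or on the base before the read. Depth was 7017 to 631704 tags, and intervals and floors (3 counts) cover counting error only.

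Here tags were summed over each locus on its strand. Counts of all annotated genes were fitted with edgeR 4.0.16 in R 4.3.3 (TMM, filterByExpr, quasi-likelihood, all 12 libraries, no covariate), and DESeq2 1.42.0 was an alternative. The script was tested on counts simulated with known changes in Alyref. For Alyref against Control edgeR called 22% of the 4-fold changes, 84% of the 16-fold changes and 0.198% of the unchanged features. The lack of a call thus does not show the lack of a difference. Single values were compared by exact permutation tests in SciPy 1.17.1, adjusted over 3 factors. Unique placement was scored with words of 20, 25 and 30 nt. Per the labels, libraries of the same number shared their sequencing runs, replicate 2 apart from replicates 1 and 3, so the number was also fitted as a block. Deviations from the group means correlated at -0.181 to 0.226 over the 18 same-number pairs, 7 of them over 0.1. Named were every family, every functional locus with a tag (RNVU1 loci beyond the top 5 as a group), the 12 copies with most tags, and called members up to 10 a comparison. Members, lists and tests were chosen with earlier results of these data known. Leaving out replicate 1 or replicate 2 of every group, and a term for the sequencing runs, were added after seeing the data. Sequences of some loci are not reported here.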

Additional observations from a re-analysis of the deposited data

Results flagged for a closer look

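10 differences between factors passed the edgeR test of the difference itself (adjusted p under 0.05, Benjamini-Hochberg), and each was lower than Nxf1 on the log2 scale. For Alyref against Nxf1 these were functional U1 (-2.39), U4 copies (-5.33), functional U4 (-2.61) and U5 copies (-1.62). For Chtop against Nxf1 they were functional U1 (-2.38), U4 copies (-5.37), functional U4 (-3.01), U5 copies (-2.42), functional U5 (-1.96) and functional U7 (-2.26). The pairs share the Nxf1 libraries. All tags per library differed between the factors as well, from 8134 to 179346 in Nxf1 and from 47052 to 631704 in Alyref and Chtop, and its part in these differences was not tested.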

How the results depend on the processing

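Of the 13 calls on families and 46 on loci, 4 and 8 were kept under every alternative run other than leaving out replicate 2 of every group, among them functional U4 in Chtop against Control and in both factors against Nxf1. With replicate 2 left out, 2 of the 13 were kept and 0 of the 26 locus calls still tested. The 2 kept were those of U4 copies against Nxf1, which rest on Nxf1 replicate 3. Over all 59, 686 of 917 alternative values kept the call, 231 lost it and 0 turned sign. Counts of called members moved with the setting, and so did the share of all features called, which is given for some of the settings. Where it is not given, a count is not read as a result about the members. The cause was not tested.

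For the 9 family features, calls in Alyref against Control numbered 0, and 1 without the composition factor, with DESeq2, without the filter on low counts, with positions counted once or with the sequencing runs as a term. In Chtop against Control 3 calls became 5 without the composition factor and 1 with DESeq2. In Alyref against Nxf1 4 became 1 with DESeq2, and in Chtop against Nxf1 6 became 2. With DESeq2 the share of all features called in these 4 comparisons was 0.310%, 6.38%, 0.341% and 8.02%, against 0%, 14.4%, 4.65% and 25.9% by edgeR. Without replicate 1 of every group, which let 13 features pass the filter, the counts were 8 and 8 against the Control and 9 and 12 against Nxf1, and of the 8247 features then tested 1.25%, 9.05%, 4.18% and 19.1% were called. Without replicate 2 of every group the counts were 0, 0, 1 and 1, with 0%, 2.74%, 0.0652% and 0.522% of 1534 features called. Leaving out each replicate in turn gave 0 to 6, 1 to 9, 1 to 7 and 3 to 9 in these 4 comparisons and 0 to 4 in Alyref against Chtop.

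For single loci, Alyref against Control had 2 calls, and 4 without the composition factor, 1 with DESeq2, 7 without the filter, 4 with positions counted once, 0 with 5 nt added at the 5′ end, 9 with the sequencing runs as a term and 26 without replicate 1 of every group. Chtop against Control had 14, and 5 with DESeq2 and 41 without replicate 1. Without replicate 1 of every group 80 loci were tested in each comparison, so more loci could be called. Alyref against Chtop had 1, and 0 with DESeq2. Alyref against Nxf1 had 9, and 15, 2, 14 and 41 without the composition factor, with DESeq2, without the filter and without replicate 1. Chtop against Nxf1 had 20, and 7 with DESeq2, 45 without the filter and 63 without replicate 1. For this comparison 25.2% of all features were called, and 7.65%, 2.86% and 19.7% under those settings, with 35, 598 and 80 loci tested. Without replicate 2 of every group each of these 5 comparisons had 0. Leaving out each replicate in turn gave 0 to 22, 2 to 33, 0 to 2, 1 to 35 and 9 to 43.

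The replicate block raised the family calls in Alyref against Control from 0 to 4 and in Chtop against Control to 7, and the locus calls to 12 in Alyref against Control and 24 in Alyref against Nxf1. The share of all features called rose from 0% to 1.46%, 14.4% to 16.1%, 0.0615% to 2.09% and 4.43% to 5.84%.

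The test of the snRNA share against the Control cannot reach 0.05 with so few libraries. With each replicate left out, this difference ranged over -2.14 to -1.03 (Alyref), -2.71 to -1.32 (Chtop) and -0.42 to 0.081 (Nxf1). For Alyref against the other factors the range was -1.10 to 0.010. The log2 ratio of snRNA to snoRNA tags ranged over -0.85 to 0.41 (Alyref) and -0.049 to 1.77 (Chtop). It turned sign for Alyref when loci in a host gene were dropped (0.10) or replicate 2 of every group (0.020), and for Chtop without replicate 1 of every group (-0.12). The open share of a locus was 58.1% for reads of 20 nt and 73.9% for 25 nt. The 70 and 88 snRNA tags of Control and Nxf1 replicate 1 limit every value of those libraries.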
